A study of Homo sapiens with 12 samples.

Results

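IL1RN, the gene of the interleukin 1 receptor antagonist, was examined with 7 genes of the interleukin 1 receptor family in HEK293T cells, a human embryonic kidney line carrying the SV40 large T antigen. The 8 genes were chosen by name (IL1RN, IL1R1, IL1R2, IL1RAP, IL1RL1, IL1RL2, IL18R1 and SIGIRR), out of 24395 features left after the RefSeq transcripts of each gene had been summed. No rule on their values was used, but earlier results of these data were known when they were chosen. The filter on low counts left 5 of the 8 for testing, and IL1R2, IL1RL1 and IL1RL2 are described by their counts. The cells had been transfected with plasmids for guide RNAs to 4 sites at IL1RN, which all 4 groups share, and for 1 of 4 proteins. These were dCas9-p300 core, in which the catalytic domain of the histone acetyltransferase p300 is fused to dCas9, dCas9-VP64, which carries a viral activation domain, dCas9-p300 D1399Y, whose p300 domain carries a change that abolishes acetyltransferase activity, and dCas9, which binds DNA without cutting it. Each group held 3 libraries of polyadenylated RNA from cells transfected by lipofection, in which not every cell takes up plasmid, so a level averages over cells with and without the protein. Library totals lay between 2442960 counts (dCas9 replicate 3) and 5154627 counts (core replicate 2).

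Interleukin 1 signals when IL-1 alpha or IL-1 beta binds IL1R1, which then recruits the accessory chain IL1RAP and, inside the cell, the adaptor MYD88 and the IRAK kinases that lead to NF-kB. The IL1RN product binds IL1R1 without recruiting IL1RAP and so blocks the receptor, and IL1R2 is a decoy that binds ligand without signalling. IL1RL1 (ST2, the receptor of IL-33) and IL1RL2 (the receptor of the IL-36 cytokines) also pair with IL1RAP, IL18R1 binds IL-18, and SIGIRR is an inhibitory member of the family. Epithelial cells and macrophages are well-known sources of the antagonist.

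The HEK293T identity of the libraries was checked against 8 markers, and all 8 had counts in every library, with a summed level of 610 to 778 CPM in the core, 628 to 777 CPM in the dCas9-VP64, 617 to 723 CPM in the D1399Y and 595 to 850 CPM in the dCas9 libraries. Levels are given in CPM, counts scaled to the TMM-adjusted library size. Of the markers of cells known for making the antagonist, the keratinocyte genes KRT5, KRT14 and KRT1 and the myeloid gene TYROBP had 0 counts in all 12 libraries. The keratinocyte gene KRT10 and the myeloid gene LYZ had counts in every library. KRT10 had means of 9.71, 11.7, 10.7 and 12 CPM in the core, dCas9-VP64, D1399Y and dCas9 groups. LYZ had means of 3.56, 3.79, 2.22 and 4.86 CPM in the same groups. TP63, PTPRC, CD14, ITGAM and CSF1R had at most 7 counts in a library. The 5 keratinocyte markers summed to 9.27 to 11.3, 11.2 to 12, 9.5 to 12.7 and 10.5 to 14.1 CPM in the core, dCas9-VP64, D1399Y and dCas9 libraries, and the 6 myeloid markers to 4.25 to 7.37, 4.83 to 7.38, 3.8 to 4.79 and 6.46 to 8.15 CPM. dCas9 replicate 3, the shallowest library, stood apart from its group: a chi-square of its counts against those of the other dCas9 libraries reached 22.0 per degree of freedom, the highest of 12 within-group pairs, where the lowest was 2.61. Core replicate 3 and D1399Y replicate 3 carry the pool label CV42 and the other 10 libraries CV41, so the CV42 libraries hold no dCas9-VP64 and no dCas9 sample.

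IL1RN lies on chromosome 2, and its transcripts start at more than 1 promoter. RefSeq (GRCh38.p14) gives 3 promoter windows of 300 bases for the gene, each reaching from 250 bases before a start to 50 after it. The first and the third are shown because the transcripts that the files list separately begin in them in GENCODE: NM_173841, NM_000577 and NM_173843 in the upstream window, at chr2:113117721-113118020 on the plus strand, and NM_173842 in the downstream window, at chr2:113127348-113127647 on the plus strand. Capitals mark the letters TATAAA, the core of a TATA box, on the printed strand. They begin 30 bases before the start in the downstream window. The same letters read on the other strand overlap them there, beginning 32 bases before the start. Neither strand of the upstream window holds them, and, with both strands searched, 11.5% of the 35116 RefSeq windows of this length hold them. Where in the gene the 4 guide sites lie is not stated in the labels.
IL1RN upstream window: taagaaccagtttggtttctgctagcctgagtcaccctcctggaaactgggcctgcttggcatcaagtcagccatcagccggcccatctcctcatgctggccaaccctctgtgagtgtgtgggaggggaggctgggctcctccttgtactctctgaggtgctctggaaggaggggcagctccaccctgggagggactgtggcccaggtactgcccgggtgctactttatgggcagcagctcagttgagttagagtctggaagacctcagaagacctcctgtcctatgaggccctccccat
IL1RN downstream window: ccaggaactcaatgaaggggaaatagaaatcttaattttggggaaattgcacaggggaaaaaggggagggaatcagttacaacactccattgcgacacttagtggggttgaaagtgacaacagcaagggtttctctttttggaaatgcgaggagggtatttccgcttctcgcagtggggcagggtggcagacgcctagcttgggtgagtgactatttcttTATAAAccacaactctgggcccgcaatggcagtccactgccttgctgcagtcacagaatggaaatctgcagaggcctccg

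The promoters of the 8 genes differ in base composition. The windows of all genes had a median of 14 CpG dinucleotides and 58.7% G and C. Those of IL1RN held 2, 5 and 7 CpG. IL1RAP, with 36, and SIGIRR, with 34, each have a single CpG-rich window, and IL18R1 has windows of 29 and 16. IL1R1 has 4 windows, with 7, 4, 8 and 40, and the 3 of IL1RL2 held 5, 9 and 16. IL1R2 held 9 and 1, and both windows of IL1RL1 held 1. Windows above the median CpG number thus occurred in IL1RAP, SIGIRR, IL18R1, IL1R1 and IL1RL2, and in none of the windows of IL1RN, IL1R2 and IL1RL1. This is a description, and nothing was tested on it.

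IL1RN RNA was most abundant with the p300 core, intermediate with VP64 and low in both other groups. Its level was 73.6, 87.9 and 89.2 CPM in the 3 core libraries, 23.6, 19.3 and 31.3 CPM in the dCas9-VP64 libraries, 6.51, 7.52 and 9.32 CPM in the D1399Y libraries and 4.25, 6.70 and 9.26 CPM in the dCas9 libraries. The core libraries did not overlap any other group, the VP64 libraries lay above all D1399Y and dCas9 libraries, and the ranges of D1399Y and dCas9 overlapped. dCas9 replicate 3 had the highest level of its group and dCas9 replicate 1 the lowest. In bulk RNA, more cells with IL1RN and more IL1RN RNA per cell cannot be told apart. In edgeR's quasi-likelihood test over 14613 genes, called at an adjusted p under 0.05, IL1RN rose 12.6-fold with the core against dCas9 (95% interval 8.59 to 18.5, higher in 3 of 3 libraries, adjusted p = 1.85e-05), where 0.00684% of genes were called. Against D1399Y it rose 10.7-fold with the core (interval 7.38 to 15.5, adjusted p = 2.96e-05), with 0.00684% of genes called. IL1RN was the 1 gene called in each of these comparisons by edgeR. DESeq2 called 4 genes in each, IL1RN with CYRIA, EP300 and KDR in the first and IL1RN with DHRS2, KDR and PDE2A in the second. EP300 is the gene of p300, and its counts in the p300 groups can include plasmid reads. Leaving out dCas9 replicate 2 or 3 gave 2 genes in the first comparison, IL1RN and EP300. Without dCas9 replicate 3 the second gave 5, which were IL1RN, CRISPLD2, DHRS2, KDR and VSIR. In the CV41 libraries alone, with 2 core and 2 D1399Y libraries left, the core stood at log2 3.61 against dCas9 (adjusted p = 0.000652) and 3.52 against D1399Y (adjusted p = 0.00383).

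IL1RN was also higher with the core than with VP64, by a call that several libraries could end. It rose 3.38-fold with the core against dCas9-VP64 (interval 2.44 to 4.68, higher in 3 of 3 libraries, adjusted p = 0.0215, edgeR), with 0.00684% of genes called. This call was lost within the CV41 libraries (log2 1.71, adjusted p = 0.398) and with the pool label as a covariate (log2 1.68, adjusted p = 0.131). It was also lost on leaving out any 1 of core replicates 1, 2 and 3, dCas9-VP64 replicates 1 and 2 or D1399Y replicate 2, at adjusted p from 0.0605 to 0.329 and log2 fold changes from 1.61 to 1.84. The number of genes called was 1, IL1RN, in edgeR, 0 on leaving out any 1 of those 6 libraries and 5 without dCas9 replicate 3 (IL1RN, CRISPLD2, EP300, KDR and VSIR). DESeq2 also called 5 (IL1RN, CRISPLD2, EP300, KDR and NFASC).

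With VP64 the level of IL1RN was 3.73-fold that with dCas9 (interval 2.52 to 5.54, higher in 3 of 3 libraries). This did not pass (unadjusted p = 5.13e-06, adjusted p = 0.0749, edgeR), and 0% of genes were called. The VP64 level was 3.17-fold that with D1399Y (interval 2.16 to 4.64, higher in 3 of 3 libraries). That did not pass either (unadjusted p = 1.5e-05, adjusted p = 0.119, edgeR), again with 0% of genes called. Without dCas9 replicate 3 both passed, at log2 2.15 (adjusted p = 0.00832) against dCas9 and log2 1.66 (adjusted p = 0.0102) against D1399Y. At an unadjusted p under 0.05 lay 449 genes in the first and 97 in the second comparison. DESeq2 called 1 gene in the first, IL1RN, and 2 in the second, IL1RN and EP300. D1399Y gave 1.18-fold the dCas9 level (interval 0.757 to 1.84, adjusted p = 0.732), with 0% of genes called (861 at an unadjusted p under 0.05, and 1, EP300, called by DESeq2 and on leaving out dCas9 replicate 2 or 3). The sign of this small difference turned without dCas9 replicate 1, at log2 -0.02. IL1RN had the smallest p of all genes in the 5 comparisons other than D1399Y with dCas9.

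**Figure D1:**
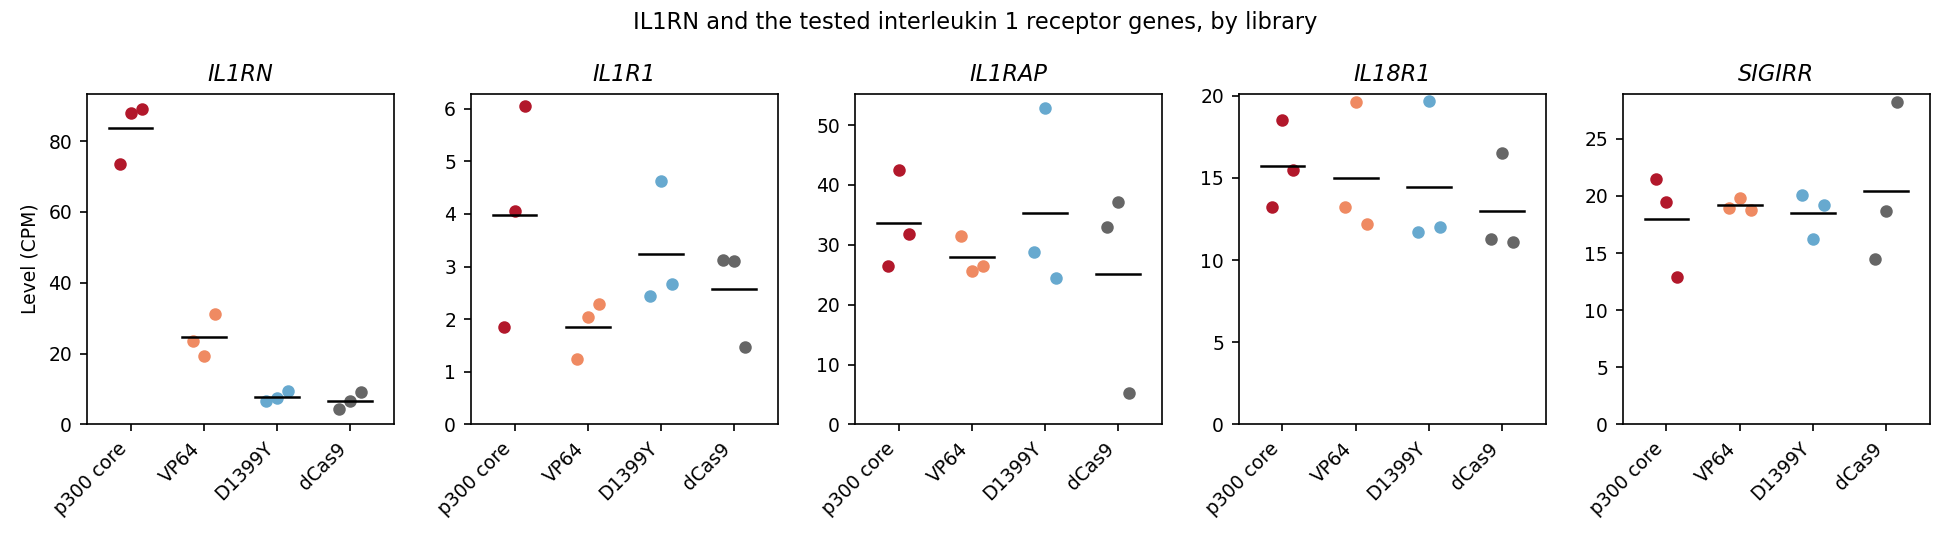
Level in CPM of IL1RN and the 4 receptor genes with enough counts for the test, 1 point per library (3 per group) with the group mean as a line, each panel on its own linear axis from 0. IL1RN stands at 73.6 to 89.2 CPM in the core libraries and at 4.25 to 9.26 CPM in the dCas9 libraries, while the groups overlap for IL1RAP, IL18R1 and SIGIRR, and dCas9 replicate 3 is low for IL1RAP at 5.19 CPM.

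The 4 IL1RN transcripts were listed separately, and each had 24% to 26.7% of the gene's reads. NM_173842 encodes the secreted antagonist with its signal peptide, and NM_173841, NM_000577 and NM_173843 encode intracellular forms that lack it. The secreted form had 67, 107 and 78 counts in the core libraries, 24, 20 and 33 in the dCas9-VP64, 6, 4 and 8 in the D1399Y and 4, 7 and 6 in the dCas9 libraries. The shortest coding form, NM_173843, had 69, 126 and 101 counts in the core, 23, 18 and 31 in the dCas9-VP64, 7, 7 and 8 in the D1399Y and 3, 7 and 5 in the dCas9 libraries. Core and VP64 libraries were above all D1399Y and dCas9 libraries for both transcripts. In GENCODE, 720 bases are common to all 4 transcripts, and only 128 bases of NM_173842, 175 of NM_173843, 63 of NM_173841 and 0 of NM_000577 lie in no other one. NM_173842 is 848 bases long and the others 1747 to 1922. How the authors assigned reads that several isoforms share is not stated in the labels or files, so the transcript values are not separate measures of the isoforms.

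In a fit of 25610 single transcripts, all 4 IL1RN transcripts were called higher with the core against dCas9 (log2 3.51 ± 0.32 to 3.96 ± 0.32, adjusted p = 5.56e-05 to 8.87e-05, edgeR), where 0.0234% of transcripts were called. The other 2 were those of EP300 and KDR, named because they complete the count. All 4 were also called higher with the core against D1399Y (log2 3.26 ± 0.31 to 3.54 ± 0.30, adjusted p = 6.05e-05 to 0.000119, edgeR), where 0.0156% of transcripts, 4 in number, were called. Against dCas9-VP64 all 4 were called higher too (log2 1.59 ± 0.24 to 1.92 ± 0.25, adjusted p = 0.0273 to 0.0387), where 0.0195% were called, the other being that of KDR. With VP64 against dCas9 none of the 4 passed in edgeR (log2 1.72 ± 0.37 to 2.04 ± 0.37, adjusted p = 0.658 to 0.948), with 0% of transcripts called, although each of the 4 was higher in 3 of 3 libraries and had an unadjusted p between 3.68e-05 and 0.000292. With VP64 against D1399Y they lay at log2 1.51 to 1.95 and none passed (adjusted p = 0.413 to 1, unadjusted p = 3.23e-05 to 0.000641), with 0% of transcripts called. With D1399Y against dCas9 none of the 4 passed (log2 0.01 to 0.47, adjusted p = 0.692 to 0.997, unadjusted p = 0.311 to 0.988), where 0.0039% of transcripts were called, 1 in number, that of EP300.

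The share of each transcript in the IL1RN reads did not differ detectably with the core. NM_173843 took 27.4% ± 2.5 of them in the core libraries, 24.4% ± 0.771 with VP64, 26.3% ± 3.2 with D1399Y and 21.7% ± 2.89 with dCas9 (SD, n = 3). The core mean was 3.32 percentage points above that of the 9 other libraries (exact permutation test over 220 splits, two-sided, p = 0.109, adjusted over the 4 transcripts p = 0.436, the smallest possible p being 0.00909). The secreted NM_173842 took 23.5% ± 0.546 in the core libraries, 26.1% ± 0.798 with VP64, 21.1% ± 5.05 with D1399Y and 25.2% ± 1.35 with dCas9. The exact permutation p of the other 3 transcripts ran from 0.564 to 0.736. In the D1399Y and dCas9 libraries a transcript had 3 to 11 counts, so a shift in share there would have to be large to be seen. How reads common to several transcripts were divided is not stated. An even division would hold the shares near equal in every group, so this test cannot show whether isoform use differed.

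**Figure D2:**
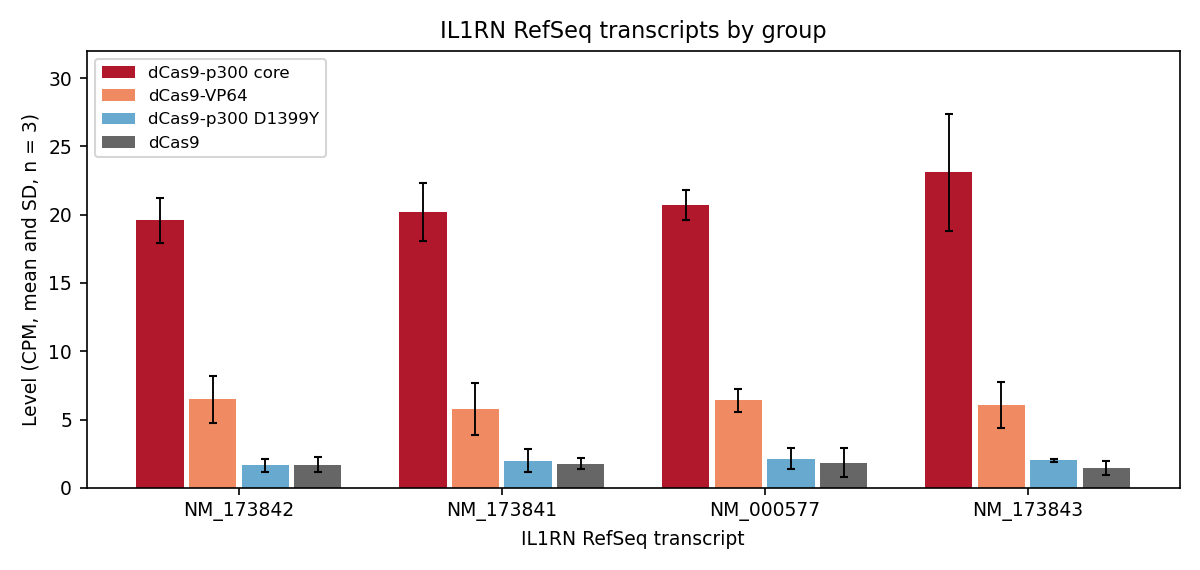
Mean level in CPM of the 4 IL1RN RefSeq transcripts in each group, with bars from 0 and error bars showing the SD of 3 libraries. All 4 are highest in the core group and next highest in the VP64 group, with means of 19.6 to 23.1 CPM in the core group and 1.46 to 1.83 CPM in the dCas9 group. NM_173842 stands at 1.64 CPM with D1399Y and 1.68 CPM with dCas9, the reverse of the order of the gene.

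IL1R1, the receptor that the antagonist occupies, was expressed at a low level in every group. It had 7, 21 and 23 counts (1.85, 4.06 and 6.05 CPM) in the core libraries, 5, 8 and 9 (1.24, 2.04 and 2.29 CPM) in the dCas9-VP64 libraries, 9, 16 and 10 (2.44, 4.63 and 2.66 CPM) in the D1399Y libraries and 11, 13 and 4 (3.12, 3.11 and 1.48 CPM) in the dCas9 libraries. The ranges of the core, D1399Y and dCas9 libraries overlapped, and those of VP64 and D1399Y did not, with VP64 lower. No comparison passed. With the core the level was 1.5-fold that with dCas9 (interval 0.779 to 2.88, adjusted p = 0.879, edgeR). It was 2.14-fold that with VP64 (interval 1.08 to 4.21, unadjusted p = 0.0293, adjusted p = 1), where 2 of 3 core libraries exceeded all VP64 libraries. VP64 against D1399Y gave log2 -0.79 ± 0.48 (adjusted p = 1). Core replicate 3 had the highest level and belongs to pool CV42, and within the CV41 libraries the core stood at log2 0.20 against dCas9, 0.71 against VP64 and -0.20 against D1399Y. At these counts the interval of the core against dCas9 reached from 0.779-fold to 2.88-fold, so a change within those bounds was not excluded.

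IL1R2, the decoy receptor, was barely detected. Its 3 transcripts had 21 counts in all 12 libraries, 6, 6, 6 and 3 in the core, dCas9-VP64, D1399Y and dCas9 groups, and 2 libraries, 1 of VP64 and 1 of dCas9, had 0. It did not pass the filter on low counts, and no group stood out. Of the 21 counts, 14 fell on NM_004633, which encodes the membrane form.

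IL1RAP, the accessory chain, was the most abundant receptor gene in CPM. It stood at 33.6 ± 8.15 CPM in the core, 27.9 ± 3.16 CPM in the dCas9-VP64, 35.4 ± 15.3 CPM in the D1399Y and 25 ± 17.3 CPM in the dCas9 libraries (SD, n = 3). Its counts were 100, 220 and 121 with the core, 127, 101 and 104 with VP64, 106, 183 and 92 with D1399Y and 116, 155 and 14 with dCas9. dCas9 replicate 3, at 5.19 CPM, lay far below every other library, of which the lowest had 24.5 CPM. Its ratio to the mean of the other dCas9 libraries was log2 -2.54 (with 1 CPM added to both), and 0.5% of the 14613 genes had a lower ratio. The fold changes moved with that library. IL1RAP was 1.31-fold with the core (interval 0.673 to 2.56), 1.08-fold with VP64 (interval 0.551 to 2.14) and 1.37-fold with D1399Y (interval 0.7 to 2.69) against dCas9, none passing (adjusted p = 0.879, 0.974 and 0.673, edgeR). Without dCas9 replicate 3 the log2 fold changes were -0.05, -0.33 and 0.01, where they had been 0.39, 0.12 and 0.46.

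IL1RAP is made both as a membrane chain that signals and as a soluble form without the membrane anchor. The 2 short coding transcripts, NM_134470 and NM_001167930 with 1068 coding bases, encode the soluble form and held 285 of the 1439 IL1RAP counts, or 19.8%. Their share was 21.2% ± 2.92 in the core, 19.4% ± 3.54 in the dCas9-VP64, 19.5% ± 4.85 in the D1399Y and 17.8% ± 4.16 in the dCas9 libraries (SD, n = 3), so the groups overlapped. Both short coding transcripts have 0 bases that lie in no other one, and how shared reads were divided is not stated. The share is therefore not a separate measure of the soluble form. NM_001167931, a longer coding form of 2061 bases, had 56, 32, 52 and 23 counts in those groups. The 6 transcripts have 1170 bases in common. Of the 5413 bases of NM_001167931, 3862 lie in no other one, against 0 to 164 bases in each of the other 5. In dCas9 replicate 3 the 6 transcripts had 0 to 5 counts each. They divide the 14 counts of the gene there and share bases, so they are no separate check of its low value.

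SIGIRR and IL18R1 had overlapping levels in the 4 groups, and neither passed in any comparison. SIGIRR stood at 18 ± 4.49 CPM in the core, 19.2 ± 0.577 CPM in the dCas9-VP64, 18.5 ± 2.04 CPM in the D1399Y and 20.4 ± 7.02 CPM in the dCas9 libraries (SD, n = 3). Its highest library was dCas9 replicate 3, at 28.2 CPM, and the groups overlapped. The log2 fold changes against dCas9 were -0.17 ± 0.25 with the core, -0.07 ± 0.25 with VP64 and -0.13 ± 0.25 with D1399Y, and all 3 turned above 0 without dCas9 replicate 3, at 0.11, 0.21 and 0.16. IL18R1 stood at 15.8 ± 2.66 CPM in the core, 15 ± 4.02 CPM in the dCas9-VP64, 14.4 ± 4.53 CPM in the D1399Y and 13 ± 3.05 CPM in the dCas9 libraries. Its interval for the core against dCas9 ran from 0.805-fold to 1.81-fold, and that of SIGIRR from 0.617-fold to 1.29-fold, so both exclude a change of the size seen in IL1RN.

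All counts of IL1RL1 fell on the transcript of its soluble form. NM_003856, which encodes soluble ST2, had 75 counts over the 12 libraries, with 5, 6 and 9 in the core, 6, 6 and 7 in the dCas9-VP64, 5, 3 and 9 in the D1399Y and 4, 9 and 6 in the dCas9 libraries. NM_016232, the membrane receptor ST2L, had 0 counts in all 12 libraries, although 939 of its 2058 bases lie in no other transcript of the gene. NM_003856 has 2875 such bases, 1119 are common to both, and how shared reads were divided is not stated. At 3 to 9 counts of the gene per library, a low level of the membrane form was not excluded. The gene did not pass the filter, and its groups overlapped. IL1RL2 had 0 counts in every library, which allows up to 3 counts per library, or 0.58 to 1.11 CPM.

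None of the 4 tested receptor genes passed in any of the 6 comparisons, and none passed under any of the 22 alternative settings in which it had a value, DESeq2 and limma-voom included. Calls were rare among all 14613 genes too, at 0% to 0.00684% in the 6 comparisons and at most 6 genes under an alternative. So 0 of 4 is near the background. Over the 6 comparisons IL1R1 in the core against VP64 was the 1 case of 24 with an unadjusted p under 0.05. Of all genes, 2.11% had such a p in that comparison and 0.664% to 5.89% over the 6, so 1 of 24 is near the background.

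**Figure D3:**
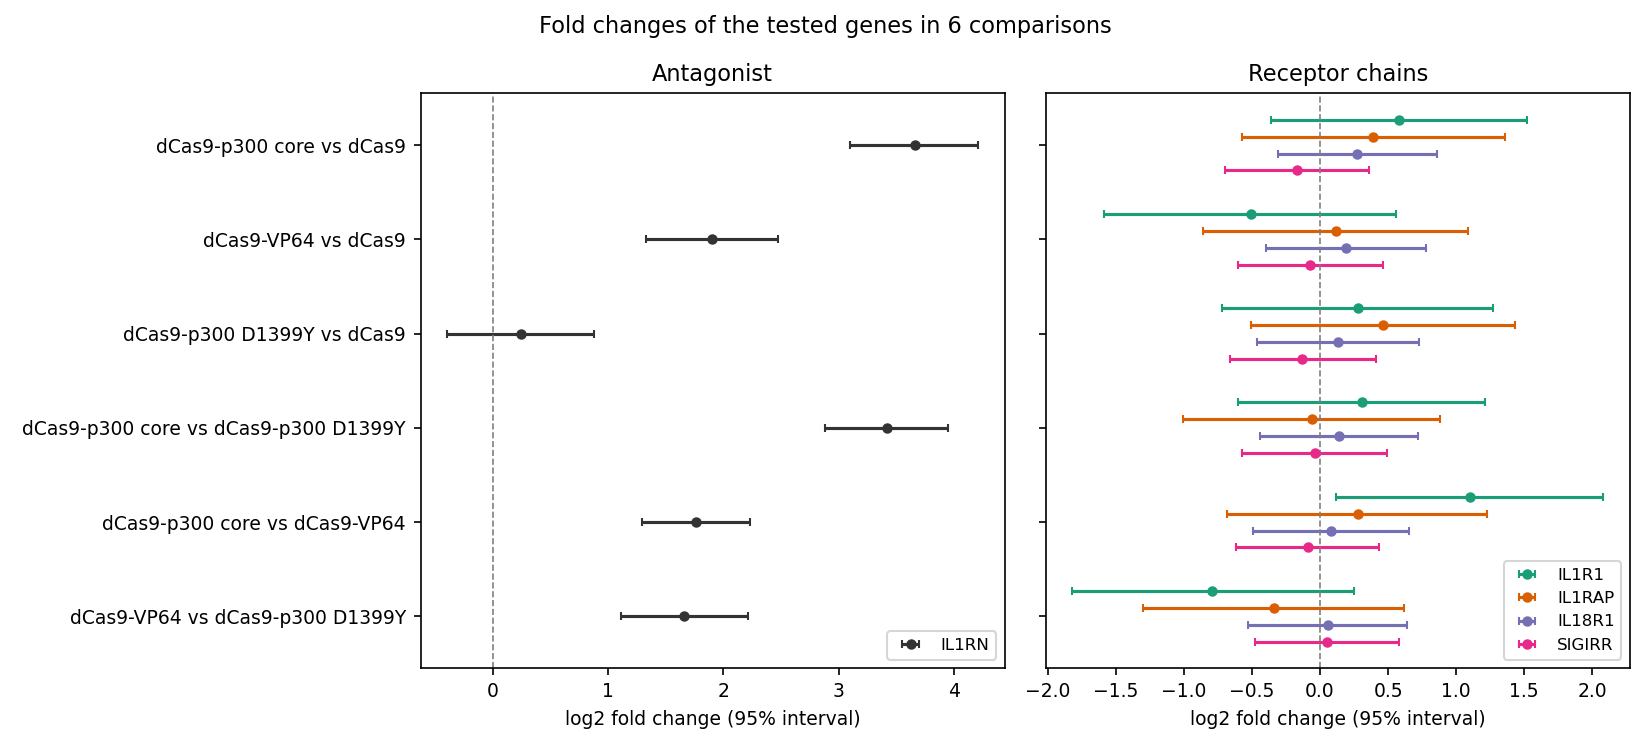
Log2 fold change with its 95% interval for IL1RN (left) and the 4 tested receptor genes (right) in the 6 comparisons, the first-named group over the second, from 1 edgeR fit of 12 libraries. IL1RN lies between 1.66 and 3.66 in the 5 comparisons that contain an activating protein, and the intervals of the receptor genes include 0 apart from IL1R1 in the core against VP64 (0.12 to 2.08).

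Per transcript length, the antagonist stood at the top of the set with the core and in its middle with dCas9. Levels per kilobase divide the CPM by the median length of the gene's GENCODE transcripts, and their scale depends on that choice. In the core libraries IL1RN stood at 47 ± 4.86 CPM per kilobase, above SIGIRR at 11 ± 2.74, IL1RAP at 9.68 ± 2.35, IL18R1 at 4.31 ± 0.727, IL1R1 at 0.775 ± 0.408, IL1RL1 at 0.534 ± 0.217 and IL1R2 at 0.343 ± 0.198 CPM per kilobase (SD, n = 3). In the dCas9 libraries SIGIRR led at 12.5 ± 4.28 CPM per kilobase, followed by IL1RAP at 7.22 ± 4.99, IL1RN at 3.79 ± 1.41, IL18R1 at 3.55 ± 0.833, IL1RL1 at 0.607 ± 0.201, IL1R1 at 0.5 ± 0.183 and IL1R2 at 0.201 ± 0.179. The libraries of SIGIRR and IL1RAP overlapped in both groups, as did those of neighbours among IL1R1, IL1RL1 and IL1R2, and in the dCas9 group those of IL1RN with both IL1RAP and IL18R1. With VP64, IL1RN stood at 13.9 ± 3.41 CPM per kilobase beside SIGIRR at 11.7 ± 0.352, and with D1399Y at 4.38 ± 0.798 beside IL18R1 at 3.94 ± 1.24, in both cases with overlapping libraries.

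The ratio of IL1RN to the receptor it binds was highest in the core and VP64 libraries. Per kilobase, IL1RN was 115, 62.7 and 42.6 times IL1R1 in the core libraries, 54.9, 27.5 and 39.5 times in the dCas9-VP64, 7.71, 4.70 and 10.1 times in the D1399Y and 3.94, 6.23 and 18.1 times in the dCas9 libraries. The core and VP64 ranges overlapped, and both lay above the D1399Y and dCas9 ranges. Its ratio to IL1RAP was 5.42, 4.04 and 5.47 in the core, 1.46, 1.47 and 2.31 in the dCas9-VP64, 0.442, 0.277 and 0.742 in the D1399Y and 0.252, 0.353 and 3.48 in the dCas9 libraries. The value of 3.48 belongs to dCas9 replicate 3, where IL1RAP was low. Against SIGIRR the ratio was 3.16, 4.15 and 6.38 in the core and 0.271, 0.331 and 0.303 in the dCas9 libraries. These are ratios of RNA, and those to IL1R1 rest on 4 to 23 counts of IL1R1 per library.

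**Figure D4:**
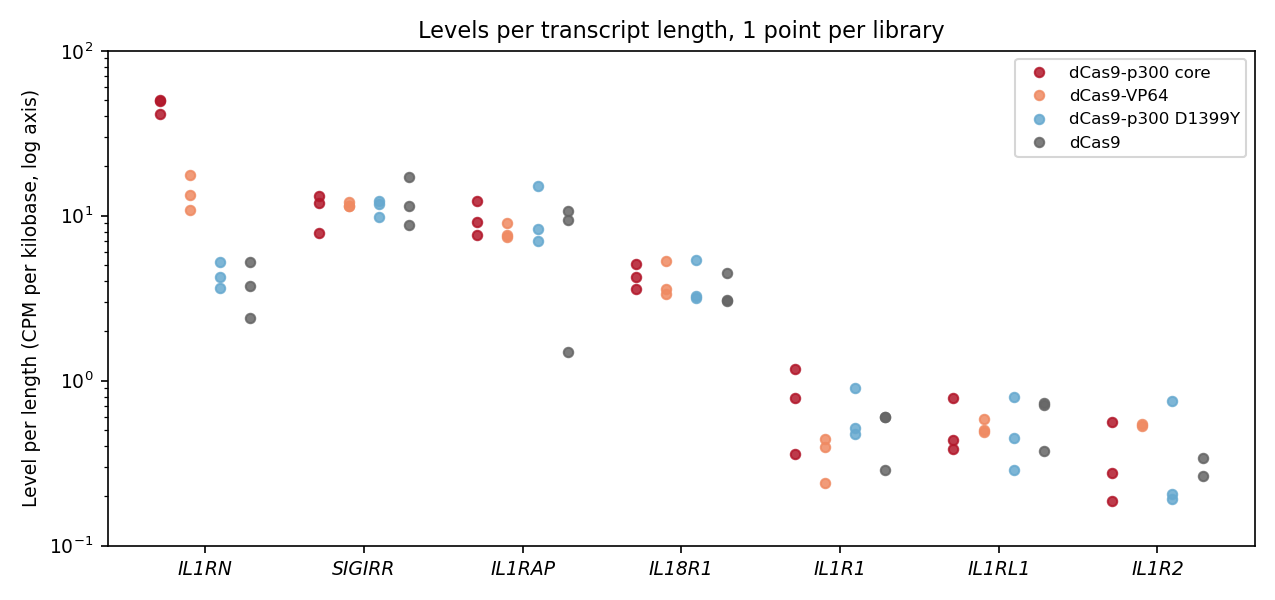
Level per transcript length (CPM per kilobase, log axis) of the 7 genes with any counts, 1 point per library. Only libraries above 0 are drawn, so IL1R2 lacks 1 dCas9-VP64 and 1 dCas9 point, and IL1RN averages 47 CPM per kilobase with the core and 3.79 with dCas9.

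The ligands of these receptors were nearly absent. IL36A, IL36B, IL36G, IL36RN, IL37 and IL1F10 had 0 counts in all 12 libraries, as had CASP1, the protease that matures IL-1 beta. IL1A had 2 counts, 1 in a dCas9-VP64 and 1 in a D1399Y library. IL1B had 2 counts, both in core replicate 2. IL33 had 5 counts in all, with at most 2 in a library. IL18, the ligand of IL18R1, had 85 counts, at 2.1 ± 1.17 CPM in the core, 1.42 ± 0.927 CPM in the dCas9-VP64, 2.01 ± 1.32 CPM in the D1399Y and 1.81 ± 0.766 CPM in the dCas9 libraries, which overlapped. Its soluble inhibitor IL18BP had 0 to 24 counts per library, the 0 being in dCas9 replicate 3, and IL18RAP, the chain that IL18R1 needs to signal, had 11 counts in all.

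Downstream of the receptors, the adaptor and kinase genes were expressed, and none was called. The list of pathway genes held 46 genes, of which 26 had enough counts, among them all 21 adaptor, kinase and NF-kB genes. Of these 26, 0 rose and 0 fell in each of the 6 comparisons, also under every alternative, DESeq2 included. Among all 14613 genes 0% to 0.00684% were called in the 6 comparisons, so 0 of 26 is near the background. At an unadjusted p under 0.05 lay 1 of them with the core against dCas9 (NFKBIA), 0 with VP64 and 1 with D1399Y (ECSIT). Over all 14613 genes the shares were 3.11%, 3.07% and 5.89% in these comparisons, so 1, 0 and 1 of 26 are near the background. With the core against dCas9 the list had a median log2 fold change of 0.06 and 15 of 26 genes above 0, where all genes had a median of 0.02 and 52.5% above 0. NFKBIA, the NF-kB inhibitor that NF-kB itself induces, stood at 37.4 ± 2.69 CPM with the core and 47.1 ± 7.38 CPM with dCas9 (log2 -0.32 ± 0.15), and the kinase IRAK4 at 68.5 ± 5.4 and 55 ± 9.69 CPM (log2 0.31 ± 0.15). PELI1, an E3 ubiquitin ligase of the IRAK kinases, stood at log2 0.26 ± 0.19, UBE2N, a ubiquitin-conjugating enzyme, at -0.14 ± 0.12, TAB3, a partner of the kinase TAK1, at 0.26 ± 0.23, and IKBKG, the regulatory subunit of the IKK complex, at -0.27 ± 0.24, all 6 at an adjusted p of 0.879 (edgeR).

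With VP64 against dCas9 the list median was 0.02, against 0.00 for all genes, with 15 of 26 above 0. NFKBIA stood at log2 -0.24 ± 0.15, the adaptor ECSIT at -0.40 ± 0.26, IRAK3, a kinase-like inhibitor of the pathway, at 0.53 ± 0.36, the NF-kB subunits RELA and NFKB1 at -0.19 ± 0.13 and 0.17 ± 0.12, and UBE2V1 at -0.16 ± 0.13, each at an adjusted p of 0.929. With D1399Y against dCas9 the median was 0.07, against 0.00, with 17 of 26 above 0. ECSIT stood at log2 -0.58 ± 0.26, IKBKG at -0.52 ± 0.25, the kinase IKBKB at -0.26 ± 0.13, TAB3 at 0.45 ± 0.23, NFKBIA at -0.27 ± 0.15 and TAB1 at -0.28 ± 0.17, each at an adjusted p of 0.633. These 3 comparisons share the dCas9 libraries. Of the 8 classical targets of the pathway only PTGS2, the gene of cyclooxygenase 2, and SOD2 were tested. PTGS2 stood at 7.55 ± 1.66 CPM with the core, 7.16 ± 1.13 with VP64, 8.21 ± 1.59 with D1399Y and 5.71 ± 3.12 with dCas9. Its dCas9 libraries ran from 2.22 to 8.22 CPM. SOD2 stood at 107 ± 9.63 CPM with the core, 108 ± 15.2 with VP64, 120 ± 16.6 with D1399Y and 106 ± 27.3 with dCas9. CXCL8, the chemokine IL-8, had 22, 14, 16 and 12 counts in those groups, or means of 1.75, 1.18, 1.48 and 1.09 CPM. IL6 had 2 counts in all.

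The genes whose log2 level was most like that of IL1RN over the 12 libraries were TRIOBP (Pearson r = 0.892), DCAF4L1 (0.891), RIMS4 (0.875), RGS7 (0.863) and MPPED1 (0.854). These coefficients are the highest of 14613 genes, are given without a p, and come from libraries that share the 4 groups. TRIOBP stood at 52.8 ± 2.74 CPM with the core, 47.6 ± 0.47 with VP64, 42.5 ± 2.48 with D1399Y and 41.5 ± 3.92 with dCas9 (SD, n = 3). DCAF4L1 stood at 4.94 ± 0.643, 2.28 ± 0.531, 1.55 ± 0.374 and 1.68 ± 0.422 CPM in the same groups, and RGS7, a regulator of G protein signalling, at 8.44 ± 0.721, 5.88 ± 1.21, 5.3 ± 0.759 and 4.57 ± 0.434 CPM. None of the 5 was called with the core against dCas9 (adjusted p = 0.543 for DCAF4L1 and 0.879 for the others, edgeR), and their log2 fold changes there were 0.35 to 1.56, against 3.66 for IL1RN. No receptor gene was among them.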

How the data were processed

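The authors deposited 1 table of raw counts per library, whole numbers for 40709 RefSeq transcripts. The submitters' processing notes name the genome build hg19 and the tools DESeq2 1.6.2, R 3.1.2, Bowtie2, SAMtools and CASAVA, with no role for each. How reads common to several isoforms, the strand and duplicate reads were treated is not stated in the labels, notes or files.

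Transcripts were named through RefSeq (39320) and GENCODE v29 tables, both of GRCh38 (521 by GENCODE), and 868, with 1.07% of reads, stayed unnamed. Counts were summed per gene. Since builds differ, lengths and promoters describe GRCh38 models, and IL1RL2 had no length.

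The test was that of edgeR 4.0.16 under R 4.3.3 (TMM, filterByExpr with a minimum count of 10 and total of 15, 1 quasi-likelihood fit of 4 group means over 12 libraries, two-sided, Benjamini-Hochberg over all genes tested, threshold 0.05). Errors beside log2 values are standard errors, and intervals are at 95%. Shares were compared with exact permutation tests (scipy 1.17.1). The alternatives were DESeq2 1.42.0, limma-voom (limma 3.58.1), scaling by upper-quartile or RLE factors, dropping the filter, raising it to 1 CPM in 6 libraries, the replicate block, the pool covariate, fits within pool CV41, fits of just the 2 groups compared, and leaving out each library. The edgeR script was first tested on simulated data.

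Named genes are the 8 members, the ligands, up to 6 pathway genes of smallest p in each comparison with dCas9 and the 5 genes most correlated with IL1RN (log2 CPM, prior count 2). Others are named with the text that counts them. The members and lists were chosen with earlier results of these data known. The labels state transfection in triplicate and no more, so the p-values rest on the spread between these samples, which may be technical. None of the 12 pairs of libraries within a group agreed within sampling noise. The limit for a count of 0 is 3 counts and, like any counting error, does not cover repeated reads of 1 molecule.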

Additional observations from a re-analysis of the deposited data

How the results depend on the processing

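IL1RN kept its direction and its call under all 22 alternatives with the core against dCas9 (log2 3.40 to 3.91) and against D1399Y (3.30 to 3.57), and so did its 4 transcripts with the core against dCas9 under the 15 alternatives run on them. Other IL1RN comparisons moved across the threshold, and the cause was not tested. For VP64 against dCas9 it passed with DESeq2 (1.90), with no filter on low counts (1.91), with the replicate block (1.89) and on leaving out dCas9 replicate 3, with a range of 1.64 to 2.15 over the libraries left out in turn. For VP64 against D1399Y it passed with DESeq2, with no filter and in a fit of the 2 groups by themselves (each 1.66), with a range of 1.46 to 1.81 over libraries left out. For the core against VP64 it did not pass with the pool covariate (1.68) or in the CV41 libraries (1.71), both built on fewer samples or degrees of freedom, and leaving out libraries gave 1.61 to 1.96. For D1399Y against dCas9 the range over libraries was -0.02 to 0.49.

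Uncalled receptor genes changed sign where they lay near 0. In the CV41 libraries SIGIRR stood at 0.02 (core against dCas9), 0.17 (core against D1399Y) and 0.09 (core against VP64), IL1R1 at -0.20 (core against D1399Y) and IL18R1 at -0.06 (VP64 against D1399Y). The pool covariate gave -0.005 for IL18R1 and -0.05 for SIGIRR (VP64 against D1399Y), and limma-voom 0.01 for IL1RAP (core against D1399Y). Leaving out libraries gave, for the core against dCas9, -0.05 to 0.78 for IL1RAP and -0.38 to 0.11 for SIGIRR. For VP64 against dCas9 the ranges were -0.33 to 0.50 for IL1RAP, -0.05 to 0.42 for IL18R1 and -0.29 to 0.21 for SIGIRR. For D1399Y against dCas9 they were -0.07 to 0.44 for IL1R1, -0.16 to 0.36 for IL18R1 and -0.34 to 0.16 for SIGIRR. For the core against D1399Y they were -0.07 to 0.64 for IL1R1, -0.28 to 0.34 for IL1RAP, -0.002 to 0.42 for IL18R1 and -0.18 to 0.14 for SIGIRR. For the core against VP64 they were -0.06 to 0.32 for IL18R1 and -0.23 to 0.09 for SIGIRR, and for VP64 against D1399Y -0.55 to 0.07 for IL1RAP, -0.18 to 0.34 for IL18R1 and -0.03 to 0.12 for SIGIRR. The share of NM_173841 was 1.02 percentage points higher with the core when set against VP64 alone. IL1R1 had no value in fits of 2 groups by themselves where VP64 was one of them, since its counts did not pass that filter.

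The number of genes called ran over the alternatives from 1 to 4 (core against dCas9), 0 to 1 (VP64 and D1399Y against dCas9), 1 to 5 (core against D1399Y), 0 to 6 (core against VP64) and 0 to 2 (VP64 against D1399Y). Replicate numbers were taken to pair the libraries only if every same-numbered pair correlated above 0.1. They were not, since 14 of 18 pairs did (range -0.176 to 0.498). As a hint from the data, 11 of 12 libraries correlated best with their own number. The replicate block added the call of IL1RN for VP64 against dCas9 (1.89, adjusted p = 0.0232) and moved no other call of a member. Depth limits IL1R1, IL1R2, IL1RL1 and IL1RL2, whose counts lay between 0 and 23 per library.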
